A study of Mus musculus with 6 samples.

Results

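Loss of Ring1a and Ring1b in intestinal stem cells was examined by comparing the RingKO and WT groups of sorted Lgr5-GFP+ cells across every RefSeq entry whose group values averaged 10 normalized reads or more. That rule kept 10957 of the 18376 entries in the table, or 10746 gene symbols. Both groups came from mice of the C57BL/6 strain. The 2 WT libraries came from Lgr5Gfp-CreERT2 animals, in which the Lgr5 locus drives a green fluorescent protein and a Cre recombinase that tamoxifen activates. The 2 RingKO libraries came from Lgr5Gfp-CreERT2 Ring1a-/- Ring1bf/f animals, whose Ring1a alleles were null in every cell and whose floxed Ring1b alleles could be cut only where Lgr5 was or had been active. All animals, controls included, received 3 tamoxifen injections and were killed on day 6, when small-intestinal crypts were isolated and sorted for Lgr5-GFP. A further pair of single libraries, labelled as Lgr5Gfp-CreERT2-Ctnnb1-ex3 without and with the same Ring alleles (Bcat and Bcat_RingKO), was used at the end. It shared no library with these groups. Ring1 was lower in the library labelled Bcat_RingKO than in Bcat, but by less than in RingKO against WT, which leaves that label in doubt. The labels give no ages and do not say whether the libraries of a group came from separate animals, so p-values measure only the spread between libraries, which may be technical.

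Ring1a (symbol Ring1) and Ring1b (symbol Rnf2) are the catalytic subunits of Polycomb repressive complex 1, which attaches ubiquitin to histone H2A at genes that are to stay silent. A partner complex, Polycomb repressive complex 2, methylates histone H3 at many of the same genes, and chromobox (Cbx) subunits of the first complex bind that mark. In mammals the sites held in this way are typically rich in CpG dinucleotides and include the genes that lay out the embryo. Lgr5-positive cells at the crypt base renew the gut epithelium and give rise to absorptive, goblet, Paneth, enteroendocrine and tuft cells.

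An entry is said below to have risen or fallen when its adjusted p in the authors' deposited table was under 0.05. Counts of rises and falls in a list cover all its genes in the table, also those with a mean under 10. They stand beside rises in 3.14% and falls in 1.76% of all 18376 entries. Levels are normalized reads, a library's reads divided by the authors' size factor, given for library A and then library B of a group. A log2 fold change is that of the deposited group means, which add 1 to each count. An entry without reads thus stands at 0.672 in WT and at 1.43 in RingKO. The printed levels leave out this 1, so with few reads they give another fold. The value after ± is a standard error (SE) of edgeR's own log2 fold change. It was derived as the size of that change divided by the square root of its quasi-likelihood F statistic. The model was fitted to the reads of the 2 libraries per genotype. Where reads are few, edgeR's log2 fold change differs from the one printed (Slc13a1, -4.83 in edgeR and -3.50 from the means). Reads per library came to 6753789 and 6294932 in WT and to 2911422 and 2651201 in RingKO. Over the 7939 entries with a mean of at least 50, library A and library B differed by a log2 ratio with an SD of 0.247 for WT and 0.454 for RingKO. Ring1 stood at 309 and 256 in WT and at 12.8 and 15.8 in RingKO (log2 fold change -4.17 ± 0.25). Rnf2 stood at 141 and 173 and at 202 and 148 (0.16 ± 0.20), and whole-transcript reads do not check a floxed allele. Of 12 epithelial markers in the table none rose and 1 fell (Cdx1, edgeR adjusted p = 0.28 with WT library A or B left out), and their summed level was 50139 and 52369 in WT and 46998 and 53412 in RingKO, while Lgr5 stood at 602 and 649.7 and at 655 and 319. Summed immune markers gave 154 and 135 for WT and 159 and 254 for RingKO over 18 of 20 genes, those of fibroblasts and muscle 53.1 and 45.1 against 56.8 and 46.0 over 13 of 15, and those of endothelium 150 and 159 against 146 and 126 over 9 of 10. No gene of these 3 lists passed in the authors' deposited table, with 0 at an unadjusted p under 0.05. A mean of at least 10 was reached by 4 immune, 3 fibroblast and muscle and 2 endothelial markers. Of these, edgeR and DESeq2 called 0. Those 4 immune markers nevertheless had a median log2 fold change of 0.88, and their list's sum was highest in RingKO library B. Of single genes, picked after their values were seen, Ptprc had 1.28 and 0 in WT and no reads in RingKO, and Pecam1 had 0 and 0.705 in WT and none in RingKO; other genes made up the sums. Only 1 of 6 erythroid genes was in the table, and the part of such cells in the results below was not tested. Enteric neuron and glia markers summed to 33.2 and 52.1 in the WT libraries and to 107 and 111 in RingKO over 9 of 12 genes, of which Foxd3, the 1 gene of the list that passed the test, made up 59.7 and 56.0.

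Of the 10957 entries, 558 rose (5.09%) and 323 fell (2.95%) by the authors' adjusted p, whereas 921 were higher and 1230 lower at an unadjusted p under 0.05. Among the 558, 517 rose by at least 2-fold, 357 by at least 4-fold and 72 by at least 32-fold, with a median log2 fold change of 2.49. Among the 323, 163 fell by at least 2-fold, 42 by at least 4-fold and 0 by at least 32-fold, with a median of -1.02. Libraries of the genotypes did not overlap in any of these 881 entries (8.04%), but that held for many entries: 18.5% of all lay higher in both RingKO libraries than in either WT library, and 45.3% lay lower. The median log2 fold change over all 10957 entries was -0.18 with the authors' size factors and -0.01 with trimmed-mean (TMM) scaling, a shift between the scalings of 0.15, so small falls near that size depend on the scaling. The split of rises against falls moved with the test: edgeR with the authors' size factors called 894 (8.23%) and 759 (6.99%), edgeR with TMM 1038 (9.54%) and 324 (2.98%), DESeq2 827 (7.55%) and 238 (2.17%), and limma-trend 749 and 573. Falls outnumbered rises when a RingKO library was left out: edgeR with the authors' size factors then called 1474 rises and 3194 falls without library A, and 1092 and 1494 without library B. Of the 558 rises 557 were also called as higher by edgeR with TMM, and of the 323 falls 259 were also called as lower.

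Where an entry stood in WT cells went with the direction it took. Over all 18376 entries, those with no WT reads had 55 rises in 880 entries (6.25%) and no fall, and those with WT reads but a mean under 10 had 209 in 6949 (3.01%), again with no fall. Between 10 and 100 normalized reads in WT, 228 of 4070 rose (5.60%) and 40 fell (0.983%). From 100 to 1000, 73 of 5628 rose (1.30%) and 213 fell (3.78%), and from 1000 upward 12 of 849 rose (1.41%) and 70 fell (8.25%). The median WT level was 14.0 for entries that rose and 439 for those that fell, and the median RingKO level was 94.0 and 206. The WT libraries enter both the level and the fold, and a fall from a low level has few reads to lose, so these shares are a description. The 50 entries just inside the minimum, with means of up to 10.3, had a median log2 fold change of -0.04, and the 50 just outside it, with means of 9.81 to 9.99, had one of 0.05.

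**Figure D1:**
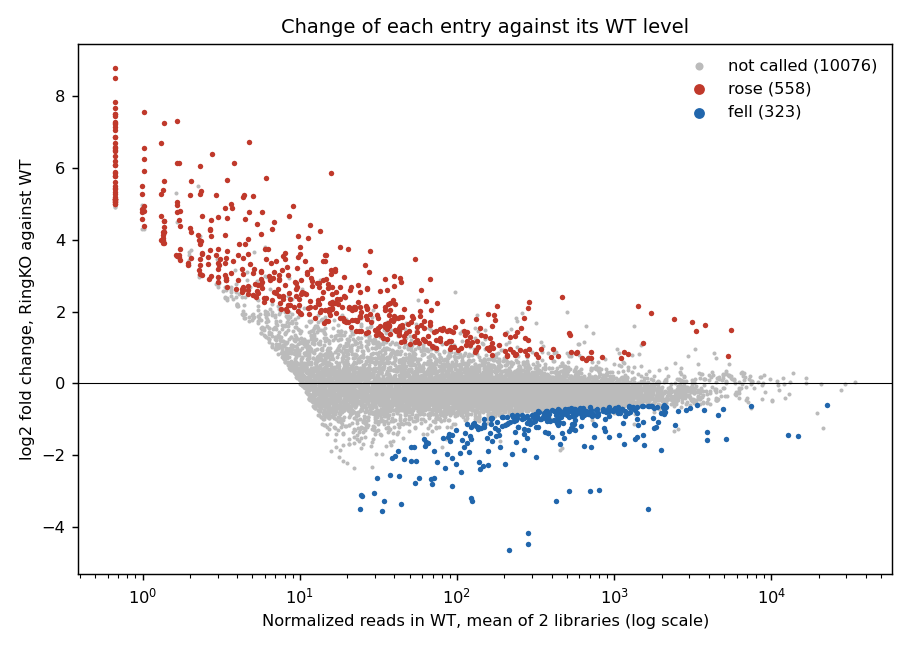
Each point is 1 of the 10957 entries, placed by its mean normalized reads in WT (x axis, log scale) and its log2 fold change of RingKO against WT (y axis). Entries that rose (558, red) spread upward at low WT levels, and those that fell (323, blue) sit at medium and high levels; an entry without WT reads is drawn at the deposited value of 0.672.

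**Figure D2:**
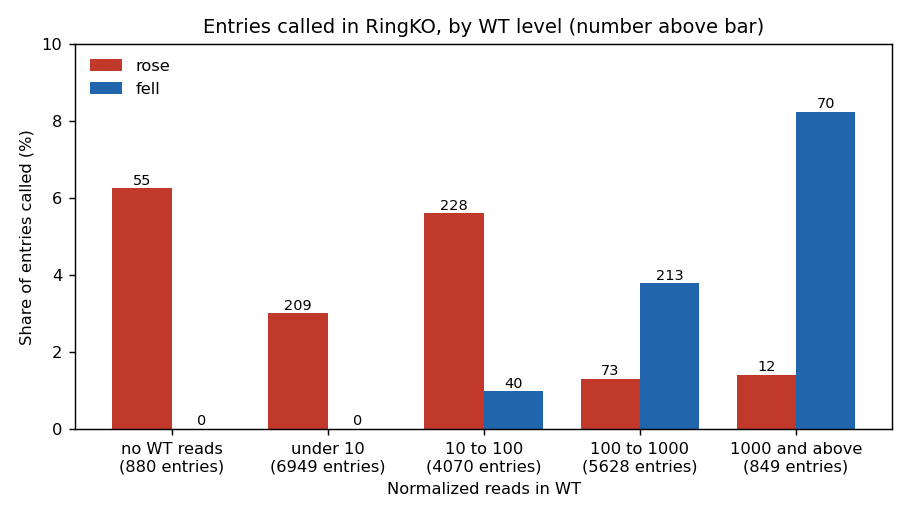
Bars give the share of entries that rose (red) or fell (blue) in 5 ranges of WT level, over all 18376 entries of the table, with the number called above each bar. Falls go from 0 in the 2 lowest ranges to 8.25% at 1000 and above.

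Genes without a single WT read made up 44 of the 558 rises. All 44 had at least 10 reads in each RingKO library, with a median level of 45.7 and a range of 21.4 to 293. Another 2 entries without WT reads reached a mean of 10 and did not pass, A1bg with 0 and 26 RingKO reads and Sall1 with 7 and 19. Together the 44 took 0.0672% and 0.0766% of RingKO reads. Per kilobase of transcript their median was 20.5 normalized reads in RingKO, against 46.6 over all 10812 entries with a length, and 7 of the 44 lay above that median. Because a minimum mean of 10 can be met through RingKO alone, nearly every gene of this kind had to differ to be listed: of the 880 entries without WT reads, 245 had reads in both RingKO libraries and 55 rose.

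Promoter windows are shown for the 2 protein-coding genes of this class with the largest rises that have a window, and for the 2 genes with the largest falls besides Ring1, so that their base composition can be compared. Each runs from 250 bases before to 50 bases after the transcription start, from RefSeq on GRCm38.p6, with CpG dinucleotides in capitals.
Esx1 (chrX:137120277-137120576, minus strand): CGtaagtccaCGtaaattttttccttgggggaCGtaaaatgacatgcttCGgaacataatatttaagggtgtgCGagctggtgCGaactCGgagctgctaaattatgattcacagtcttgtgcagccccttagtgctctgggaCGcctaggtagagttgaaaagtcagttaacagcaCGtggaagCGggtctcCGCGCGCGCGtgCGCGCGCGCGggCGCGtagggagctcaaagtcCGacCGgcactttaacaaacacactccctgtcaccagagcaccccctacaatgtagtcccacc
Foxd1 (chr13:98353995-98354294, plus strand): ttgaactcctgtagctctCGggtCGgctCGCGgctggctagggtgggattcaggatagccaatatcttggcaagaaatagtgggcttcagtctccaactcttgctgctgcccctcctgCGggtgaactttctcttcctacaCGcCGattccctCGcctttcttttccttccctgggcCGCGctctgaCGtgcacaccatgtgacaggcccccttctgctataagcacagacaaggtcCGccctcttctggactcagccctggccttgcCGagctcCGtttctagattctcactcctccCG
Gast (chr11:100334157-100334456, plus strand): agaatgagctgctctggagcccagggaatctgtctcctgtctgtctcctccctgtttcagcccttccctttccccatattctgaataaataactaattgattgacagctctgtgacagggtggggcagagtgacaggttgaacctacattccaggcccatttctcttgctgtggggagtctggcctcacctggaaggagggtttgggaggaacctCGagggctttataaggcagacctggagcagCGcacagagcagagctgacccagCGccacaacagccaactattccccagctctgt
Gcg (chr2:62483604-62483903, minus strand): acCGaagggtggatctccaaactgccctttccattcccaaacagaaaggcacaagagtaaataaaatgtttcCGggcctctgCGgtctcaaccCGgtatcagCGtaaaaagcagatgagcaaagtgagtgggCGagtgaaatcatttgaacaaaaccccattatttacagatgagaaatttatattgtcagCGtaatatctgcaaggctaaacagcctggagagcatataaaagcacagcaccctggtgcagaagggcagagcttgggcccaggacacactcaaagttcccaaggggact
Esx1, a homeobox gene of placenta and testis on the X chromosome, had no reads in WT and 175 and 162 in RingKO, at least 239-fold higher when the WT group is set at 3 reads in all. Its window holds 24 CpG, a number reached by 19.98% of all 32851 windows. Foxd1, a forkhead gene of kidney stroma and retina, went from no reads to 93 and 75 (at least 119-fold), and its window holds 15 CpG, reached by 34.6%. The windows of Gast and Gcg, the genes for the hormones gastrin and glucagon, hold 3 and 7, reached by 76.7% and 52.1%. The median over all windows is 7. The letters TATAAA were searched on the printed strand, which reads as the transcript does, and on the other strand. They occur on the printed strand of the Gcg window at position -24 from the start and once on its other strand. They also occur once on the other strand of the Gast window, and in neither window of a gene that rose. Of all windows, 8.32% hold them on the strand that reads as the transcript and 13.6% on either. Windows were at hand for only 73.7% of the entries that rose, too few to compare the classes. The first 300 bases of the annotated transcript, at hand for 99.1% of rises and 99.7% of falls, held a median of 25 CpG in entries that rose, 18 in those that fell and 21 over all. At least 10 CpG were present in 87.3%, 70.5% and 84.7%. The median was 24 for the 44 genes without WT reads.

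Genes for transcription factors of the embryo rose in many families. Over 12 families, 69 of 188 genes in the table rose (36.7%) and 4 fell, against 3.14% and 1.76% over all 18376 entries. They supplied 29 of the 44 rises from no WT reads, and 111 of the 188 reached a mean of 10. Hox genes, which set position along the body axis, had 22 rises in 37 and no fall. Of 18 paired-like homeobox genes 7 rose and 1 fell. Otx1, of the forebrain, had 1 and 2 WT reads and 85 and 79 RingKO reads, a ratio of 116 (95% counting interval 39.2 to 571). The fall was Isx, a gut factor that restrains vitamin A formation, at 582 and 548 in WT and 210.3 and 247 in RingKO (-1.30 ± 0.16). In both the WT and RingKO libraries did not overlap.

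Iroquois genes and the related sine oculis homeobox genes, which pattern heart, limb and sense organs, had 5 rises in 11, among them Irx2, Irx4 and Irx5, and no fall. Irx5 went from no reads to 49 and 57 (at least 75.1-fold), and Irx2 from 0 and 1 to 63 and 69, a ratio of 281 (49.6 to 11193). NK homeobox genes had 8 rises in 21. Nkx2-3, a factor of gut mesenchyme and spleen, went from no reads to 36 and 52 (at least 62.4-fold). LIM homeobox genes went both ways, with 4 rises (Lhx1, Lhx2, Isl2 and Lmx1b) and 1 fall in 11. Lhx2, of forebrain and hair follicle, rose from 2 and 0 reads to 109 and 79, a ratio of 200 (54.7 to 1666). Isl2, of motor neurons, rose from no reads to 27 and 59 (at least 61.1-fold), whereas its relative Isl1, which enteroendocrine cells use, fell from 25.6 and 21.8 to 0 and 2.87 (-3.09 ± 0.74).

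Of 16 Sox genes 5 rose (Sox2, Sox3, Sox11, Sox17 and Sox21) and 1 fell. Sox3, of neural progenitors, had 0 and 2 WT reads and 184 and 109 RingKO reads, a ratio of 312 (85.7 to 2590). Sox4, active in proliferating progenitors, fell from 872 and 828 to 527 and 504 (-0.72 ± 0.15). Of 34 forkhead genes 8 rose and 1 fell. Foxl2, of the ovary, went from no reads to 54 and 69 (at least 87.2-fold), and Foxd3, of the neural crest, from no reads to 42 and 39 (at least 57.4-fold). The fall was Foxm1, a driver of mitotic genes, which stood at 678 and 692 in WT and at 379 in both RingKO libraries (-0.85 ± 0.14). Leaving out WT library A or B took its edgeR quasi-likelihood adjusted p to 0.051 and 0.059. Of 8 Zic and Gli-similar genes 4 rose (Zic1, Zic2, Zic5 and Glis2), of 13 T-box genes 2 (Tbx15 and Tbx20), of 5 GATA genes 2 (Gata2 and Gata3), and of 8 Pax genes 1 (Pax2), with no fall in these. The 6 Hox cofactors of the Meis and Pbx families gave no call in the authors' deposited table and 0 unadjusted p under 0.05. Among the 4 with a mean of at least 10, edgeR and DESeq2 made 0 calls. Of 313 zinc finger genes named Zfp, 3 rose (Zfp651, Zfp580 and Zfp334) and 3 fell (Zfp106, Zfp292 and Zfp367), both shares below those over all entries.

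**Figure D3:**
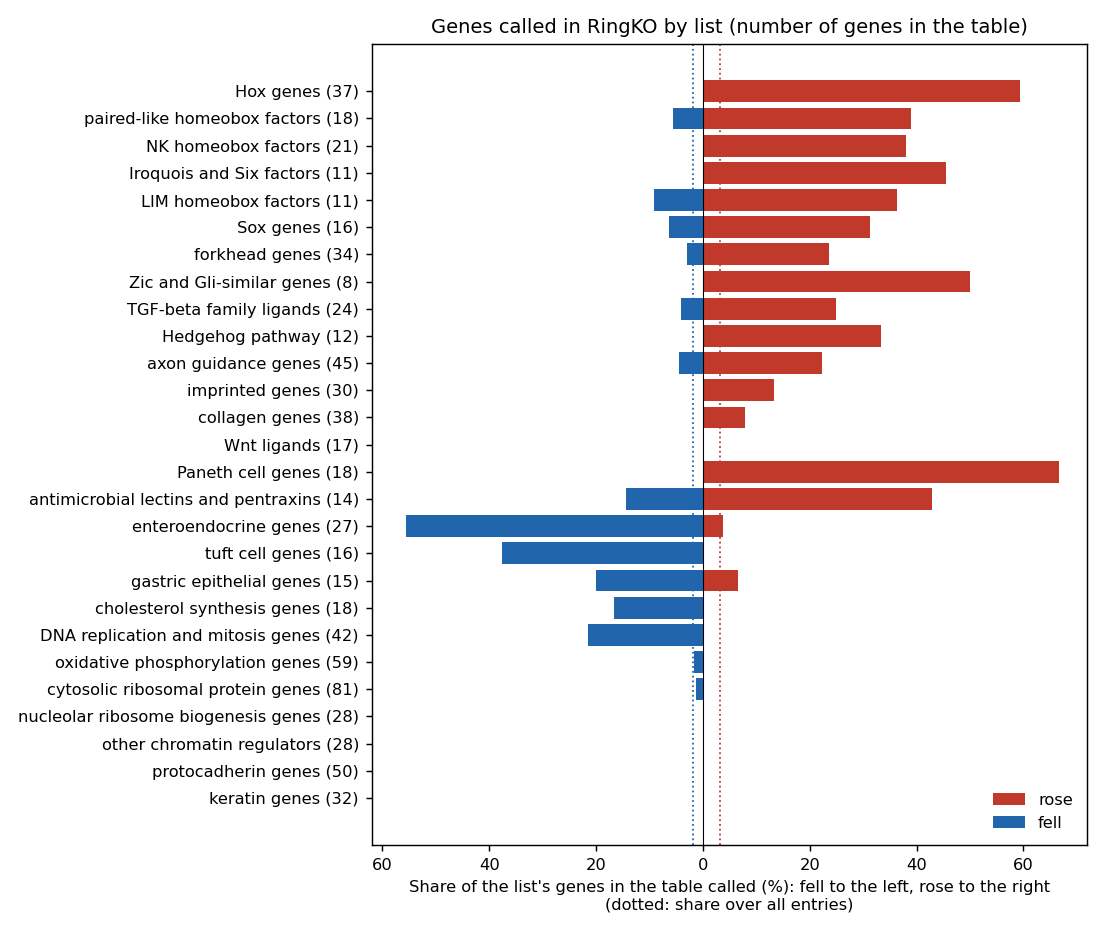
Bars give the share of the genes of each list present in the table that rose (right, red) or fell (left, blue), with the number of genes in parentheses and the share over all entries dotted (3.14% rose, 1.76% fell). Homeobox families extend to the right only or mostly, enteroendocrine and tuft genes to the left, and the 4 lowest lists show no call.

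Some of the genes that rose were neighbours on their chromosomes. Of 551 risen genes placed in gene order among the tested entries, 112 (20.3%) had a risen neighbour, and of 320 that fell, 36 (11.25%) had a fallen one. More genes rose than fell, so these shares are not comparable and no test was made. Rises formed 8 runs of at least 3, holding 36 genes. The longest was 9 entries of the HoxA cluster, from Hoxa2 to Hoxa13, followed by 7 of HoxD and 5 of HoxC. The Hoxa11 and Hoxa11os entries of that run overlap on opposite strands, and whether the counting used strand is not given in the sources. A run on chromosome 19 held all of Dmrt1, Dmrt3 and Dmrt2, factors of gonad and muscle development. Dmrt1 went from no reads to 31 and 31, Dmrt3 from 0 and 1 to 47 and 37, and Dmrt2 from 0 and 3 to 35 and 30. A run on chromosome 11 included Tbc1d16 and Cbx8, which encodes a chromobox subunit of Polycomb repressive complex 1 itself. Cbx8 stood at 70.3 and 66.9 in WT and at 148 and 132 in RingKO (1.03 ± 0.19), and Tbc1d16 at 104 and 116 and at 309.8 and 292 (1.45 ± 0.16). The edgeR adjusted p of Cbx8 was 0.067 without WT library B. Another 2 runs were of defensin genes on chromosome 8, near-identical copies between which reads can be split. Falls formed 2 runs of 3, Rgs2, Rgs13 and Pla2g4a on chromosome 1, and Clca2, Clca4 and AI747448 on chromosome 3.

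Genes for secreted signals and their receptors rose in several families. Of 24 ligands of the TGF-beta family 6 rose and 1 fell, and the rises not described here were Gdf11, Gdf15 and Inha. Bmp4, a ligand usually made by the mesenchyme around the crypt, had 2 and 1 WT reads and 34 and 36 RingKO reads, a ratio of 49.7 (16.3 to 247). Inhbb, which encodes an activin subunit, had 1 WT read in each library and 44 and 32 in RingKO, a ratio of 81.0 (21.7 to 681). Tgfb1 was present in WT at 20.5 and 26.8 and rose to 146 and 136 (2.56 ± 0.24). The fall was Bmp3, at 134 and 135 in WT and 65.4 and 48.8 in RingKO (-1.21 ± 0.22). In each of these 4 genes the RingKO libraries lay closer to each other than to either WT library.

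Of 12 Hedgehog pathway genes 4 rose and none fell. They span the pathway: the ligand gene Ihh (214 and 202 in WT, 358 and 352 in RingKO, 0.77 ± 0.15), the co-receptor genes Gas1 (2.56 and 2.82 to 36.9 and 28.7, 3.35 ± 0.47) and Boc (0.88 ± 0.17), and the effector gene Gli2, which went from no reads to 12 and 28 (at least 28.4-fold). Boc lost its call without WT library A (edgeR adjusted p = 0.0998) or B (0.057). Of 16 Wnt receptor genes 2 rose, Fzd9 from 21.7 and 21.8 to 90.9 and 93.3 (2.06 ± 0.26) and Fzd3 from 5.75 and 7.75 to 73.9 and 44.5 (3.03 ± 0.41). None of 17 Wnt ligand genes passed in the authors' deposited table, while 2 were higher and 1 lower at an unadjusted p under 0.05. Among the 3 with a mean of at least 10, edgeR with the authors' size factors called 2 as higher and 1 as lower. DESeq2 called 2 of the 3 as higher. Wnt3, the ligand made by Paneth cells, stood at 98.4 and 101 in WT and at 166 and 189.5 in RingKO (0.84 ± 0.17; adjusted p = 0.082 in the authors' deposited table). Of 13 FGF ligands none passed, with 1 higher at an unadjusted p under 0.05. Among the 3 with a mean of at least 10, edgeR called 1 as higher and DESeq2 called 0.

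Among 45 axon guidance genes, whose products also steer cells in other tissues, 10 rose and 2 fell. Sema3f, a secreted semaphorin gene, stood at 41.5 and 38.1 in WT and at 196 and 175 in RingKO (2.21 ± 0.20). Plxnd1, a semaphorin receptor gene, rose from 31.96 and 26.8 to 124 and 142 (2.16 ± 0.23), and Rgma, a repulsive guidance gene, from 7.03 and 7.05 to 71.0 and 63.2 (3.15 ± 0.34). Sema7a, which encodes a membrane-anchored semaphorin, fell from 844 and 877 to 404 and 325 (-1.24 ± 0.16). The genes that rose were at low levels in WT, and the one named that fell was not.

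Genes of the cytoskeleton and the matrix were among the largest rises that started from a measurable level. Nes, which encodes nestin, an intermediate filament of neural progenitors, went from 3.20 and 4.93 in WT to 516 and 475 in RingKO (6.71 ± 0.25). Nefh, a neurofilament gene, rose from 2.56 and 9.87 to 73.9 and 41.6 (3.10 ± 0.55). Vim, the vimentin gene of mesenchymal cells, moved the other way, from 156 in both WT libraries to 44.0 and 38.8 (-1.87 ± 0.21). The 22 intermediate filament genes thus held 3 rises and 2 falls, the others being Ina, which rose, and Lmnb1, which fell. None of 32 keratin genes passed in the authors' deposited table, with 0 at an unadjusted p under 0.05. Among the 11 with a mean of at least 10, edgeR and DESeq2 made 0 calls. Myh10, a non-muscle myosin gene, rose from 12.8 and 8.46 to 196 and 172 (4.04 ± 0.27), and Gpc1, a heparan sulfate proteoglycan gene, from 12.1 and 13.4 to 293 and 214 (4.24 ± 0.26). Lama5, which encodes a laminin chain of epithelial basement membranes, stood at 174 and 185 in WT and at 651 and 953 in RingKO (2.16 ± 0.20). Of 38 collagen genes 3 rose, Col9a3 (edgeR adjusted p = 0.10 without WT library B), Col27a1 (15.3 and 16.9 to 166 and 136, 3.18 ± 0.25) and Col16a1 (40.3 and 37.3 to 289.9 and 225, 2.71 ± 0.20), while the fibroblast collagen gene Col1a1 stood at 11.5 and 3.52 and at 18.5 and 14.4 and did not pass. None of 50 protocadherin genes passed in the authors' deposited table, with 1 higher at an unadjusted p under 0.05. Among the 6 with a mean of at least 10, edgeR called 2 as higher and DESeq2 called 1.

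Some genes of the fetal gut and imprinted genes rose. Igf2bp1, which encodes an RNA-binding protein of fetal tissues, had 1 and 5 WT reads and 158 and 159 RingKO reads, or 0.639 and 3.52 against 225 and 228 normalized (6.37 ± 0.38). Its relative Igf2bp3 rose from 17.9 and 21.1 to 311 and 227 (3.74 ± 0.24). Prdm1, a repressor active in the suckling gut, was the remaining rise among 22 genes of fetal or regenerating epithelium in the table (2.13 ± 0.36). Of 30 imprinted genes 4 rose (Igf2, Phlda2, Plagl1 and Gatm) and none fell. Igf2, a fetal growth factor gene, went from no reads to 30 and 22 (at least 36.8-fold), and Phlda2, a growth-restraining gene of placenta, from 5.11 and 5.64 to 59.7 and 101 (3.75 ± 0.41). H19, the noncoding neighbour of Igf2, stood at 194 and 366 in WT and at 548 and 20.1 in RingKO, so the RingKO libraries lay on either side of both WT libraries. Of 25 germline genes 2 rose, Tdrkh and Zcwpw1, beside rises in 3.14% of all entries.

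Genes with larger WT levels rose as well, 73 at 100 to 1000 and 12 at 1000 and above. Among them were genes of Paneth cells, the antimicrobial neighbours of the stem cells. Of 18 Paneth cell genes 12 rose and none fell, and all 18 lay higher in both RingKO libraries than in either WT library, beside 18.5% of all entries. Their summed level was 24196 and 15439 in WT and 53763 and 69304 in RingKO. Lyz1, the lysozyme gene, stood at 6686 and 4447 in WT and at 12975 and 18026 in RingKO (1.48 ± 0.27), and its edgeR adjusted p was 0.12 without WT library B. In bulk samples a larger share of a cell type and more RNA per cell cannot be told apart. Stem cell markers summed to 37951 and 43962 in the WT libraries and to 30789 and 16020 in RingKO. Olfm4 alone made up 19237 and 23518 of the WT sums and 13530 and 4502 of the RingKO sums. It did not pass (adjusted p = 0.197 in the authors' deposited table). Of the 12 stem cell markers none rose and 2 fell, beside falls in 1.76% of all entries. Ascl2 fell from 670 and 564 to 293 and 250 (-1.18 ± 0.17), and Cdca7 from 2350 and 2551 to 1390 and 798 (-1.16 ± 0.25). RingKO library B was the lowest of the 4 for stem cell genes and the highest for Paneth genes. The part of this difference between libraries in the result was not tested. Mptx1, a pentraxin gene, went from 13.4 and 16.9 to 884 and 939 (5.85 ± 0.21), whereas its paralog Mptx2 went from 359.9 and 208 to 1330.0 and 1089.9 (2.09 ± 0.25). Hspb1, a small heat shock gene, rose from 4.47 and 6.34 to 234 and 396 (5.70 ± 0.36). Stress and immediate early genes summed to 47046 and 57725 in the WT libraries and to 67544 and 80165 in RingKO, with 4 rises (Hspb1, Btg2, Dnajb1 and Jun) and no fall in 27, and their part in other results was not tested.

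**Figure D4:**
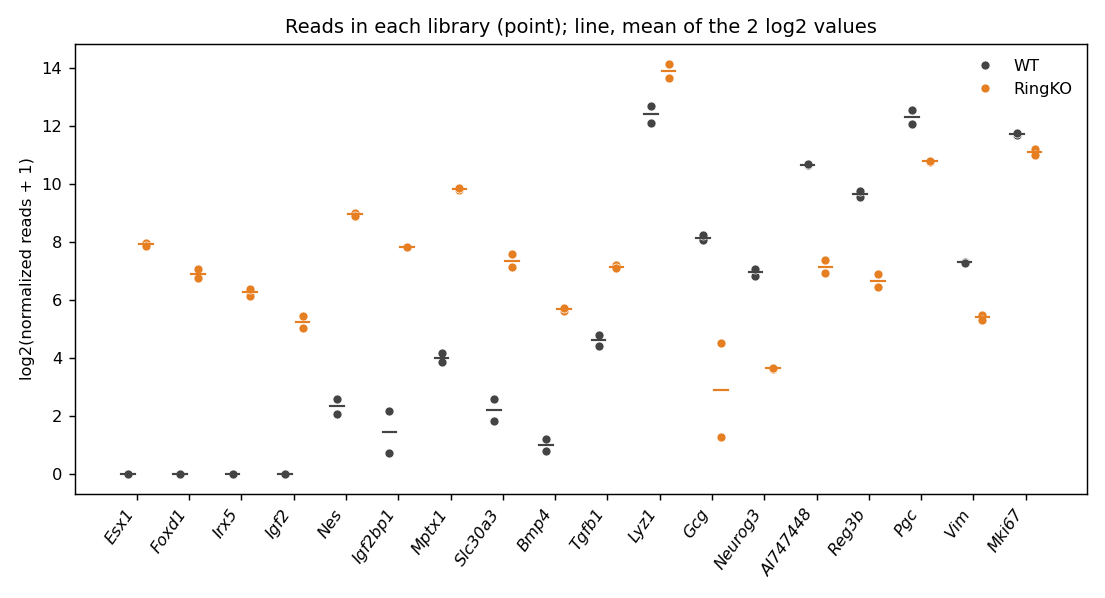
Points are single libraries (WT dark, RingKO orange) on a scale of log2(normalized reads + 1) for 18 genes described in the text, and lines are means of the 2 values. Esx1, Foxd1, Irx5 and Igf2 have no WT reads, and the RingKO points of Gcg lie farther apart than those of the other genes.

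The genes that fell were mostly genes that WT cells used at medium or high levels. Falls took 6.10% and 6.25% of normalized reads in WT and 3.56% and 3.45% in RingKO, and rises went from 1.47% and 1.26% to 4.02% and 4.90%. Hormone cell genes gave the largest falls. Of 27 enteroendocrine genes 15 fell and 1 rose. Gcg stood at 265 and 299 in WT and at 1.42 and 21.5 in RingKO (-4.45 ± 0.47), Gast at 164 and 261 and at 2.84 and 11.5 (-4.63 ± 0.45), and Neurog3, the factor that starts this lineage, at 113 and 133 and at 11.4 and 11.5 (-3.27 ± 0.29). The 1 that rose was Sct, the secretin gene, from 153 and 160.0 to 493 and 692 (1.92 ± 0.19). Of 16 tuft cell genes 6 fell and none rose. The summed level went from 7696 and 9205 to 3476 and 3867 for enteroendocrine genes and from 1244 and 1280 to 510 and 537 for tuft genes, and a smaller number of such cells cannot be told apart from less RNA per cell.

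Of 14 genes for antimicrobial lectins, pentraxins and related proteins, 6 rose and 2 fell. The falls were Reg3b, from 745 and 865 to 85.3 and 118 (-2.97 ± 0.20), and Reg1, from 146 and 130.4 to 28.4 and 30.2 (-2.18 ± 0.23), both C-type lectin genes of the Reg family. Among entries above 1000 in WT the largest fall was AI747448, next to Clca2 and Clca4 on chromosome 3, at 1627 and 1639.7 in WT and at 122 and 164 in RingKO (-3.50 ± 0.19). Clca4 fell from 11930.0 and 13576 to 5995 and 3426 (-1.44 ± 0.28), and Clca2 from 249 and 222 to 75.3 and 76.1 (-1.62 ± 0.18); both were chosen after their values were seen. Of 7 butyrophilin-like genes, whose products select gut T cells, 2 fell: Btnl2 from 92.0 and 91.6 to 14.2 and 27.3 (-2.06 ± 0.31), and Btnl1 from 209 and 204 to 92.4 and 94.8 (-1.13 ± 0.17). Interferon-stimulated genes had 2 rises in 31 (Bst2 and Oasl2) and no fall, beside rises in 3.14% of all entries.

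Of 15 gastric genes 3 fell (Pgc, Gif and Muc5ac) and 1 rose. Pgc, the gene for a pepsinogen, fell from 4298 and 6049 to 1753 and 1794 (-1.54 ± 0.21), and Gif, which encodes the carrier of vitamin B12, from 217 and 316 to 81.0 and 64.6 (-1.85 ± 0.24). The rise was Sox2, at 1 and 3 WT reads and 18 and 12 RingKO reads (edgeR adjusted p = 0.065 without WT library A). Retinoid and alcohol metabolism genes went both ways, with 2 rises (Rarb and Rarg, retinoic acid receptor genes) and 2 falls in 25. Rarg did not reach a mean of 10 and is not among the 10957 entries. Rarb rose from 3.83 and 4.23 to 29.8 and 20.1 (2.49 ± 0.47), with an edgeR adjusted p of 0.094 and 0.085 without WT library A or B, and Rarg from no reads to 11 and 10 (at least 14.9-fold). Adh1, an alcohol and retinol dehydrogenase gene, fell from 1546 and 1538 to 472 in both RingKO libraries (-1.70 ± 0.15), and Adh6a from 233 and 215 to 38.4 and 74.7 (-1.96 ± 0.26). Of 39 genes for glucuronosyl and glutathione transferases 3 fell (Ugt2a3, Ugt1a6a and Gstm3) and none rose, with Ugt2a3 going from 77.3 and 63.4 to 7.10 and 12.9 (-2.63 ± 0.37). Solute carriers went both ways, with 13 rises and 11 falls in 326, beside 3.14% and 1.76% over all entries. Slc30a3, a zinc carrier gene of synaptic vesicles, rose from 2.56 and 4.93 to 189 and 139 (5.23 ± 0.36), and Slc13a1, a sulfate carrier gene, fell from 21.7 and 25.4 to 0 and 1.44 (-3.50 ± 0.77).

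Of 42 DNA replication and mitosis genes 9 fell and none rose, and the 39 with a mean of at least 10 had a median log2 fold change of -0.59 beside -0.18 over all entries. Mcm10, a replication initiation gene, stood at 525 and 509 in WT and at 299.8 and 243 in RingKO (-0.93 ± 0.16). Of 18 cholesterol synthesis genes 3 fell, among them Insig1 (-0.86 ± 0.18) and Sqle (-0.71 ± 0.16). With TMM scaling edgeR gave Sqle an adjusted p of 0.057, and without WT library B the values were 0.15 and 0.24 for Insig1 and Sqle. Of 59 oxidative phosphorylation genes 1 fell, Sdha (-0.75 ± 0.21), which lost its call with TMM (edgeR adjusted p = 0.083) and without either WT library (0.20 and 0.32). Of 81 cytosolic ribosomal protein genes 1 fell (Rps4l, edgeR adjusted p = 0.082 and 0.12 without WT library A or B), and their median was 0.11. Neither of the last 2 lists had a larger share of falls than the 1.76% over all entries. None of 28 nucleolar ribosome biogenesis genes passed in the authors' deposited table, with a median of -0.34, and 5 were lower at an unadjusted p under 0.05. Among the 27 with a mean of at least 10, edgeR called 4 as lower, edgeR with TMM 1 and DESeq2 0. None of 28 other chromatin regulators passed in the authors' deposited table, with 0 at an unadjusted p under 0.05. Among the 20 with a mean of at least 10, edgeR and DESeq2 made 0 calls.

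The Bcat pair held the same genes in libraries that the calls had not used. Both of these libraries are labelled with the Ctnnb1-ex3 allele, each group has 1 library, and there is no replicate check. Ring1 had 24 reads in the library labelled Bcat and 43 in the deeper library labelled Bcat_RingKO, a ratio of 0.358 (95% counting interval 0.213 to 0.617), where RingKO had 0.0555 of the WT level. The ratio rests on 24 Bcat reads, and the RingKO libraries also kept Ring1 reads (9 and 11). Ring1 was thus lower under the label Bcat_RingKO, but less so than in RingKO, and the label was not tested. The directions below are those between 2 libraries as labelled and are not read as loss of Ring1a and Ring1b. Of the 558 entries that rose in RingKO, 529 (94.8%) had a ratio above 1 of the library labelled Bcat_RingKO to Bcat, and for 486 (87.1%) the interval lay above 1. Among the 10029 entries not called, the shares were 65.0% and 38.6%. All 44 genes without WT reads had a ratio above 1, and 40 of them had no reads in Bcat either. Nes had 0 and 510 reads, and Igf2bp1 had 1 and 433, a ratio of 86.6 (15.5 to 3428). Of the 323 entries that fell, 204 had a ratio below 1, and for 147 (45.5%) the interval lay below 1, against 18.2% of those not called. Gcg had a ratio of 0.050 (0.0233 to 0.0984), Reg3b 0.0886 (0.0768 to 0.102) and AI747448 0.159 (0.138 to 0.183). For 23 rises the interval lay below 1, and at least 12 of the 23 were Paneth cell or defensin genes. Gm15292, from a defensin run, is not counted among the 12. Lyz1 had a ratio of 0.219 (0.205 to 0.235). For 59 falls the interval lay above 1, among them Mki67, a proliferation marker, at 2.68 (2.37 to 3.06) and Mcm10 at 1.83 (1.38 to 2.46). Intervals cover counting error only, and whether the pairs differ was not tested.

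**Figure D5:**
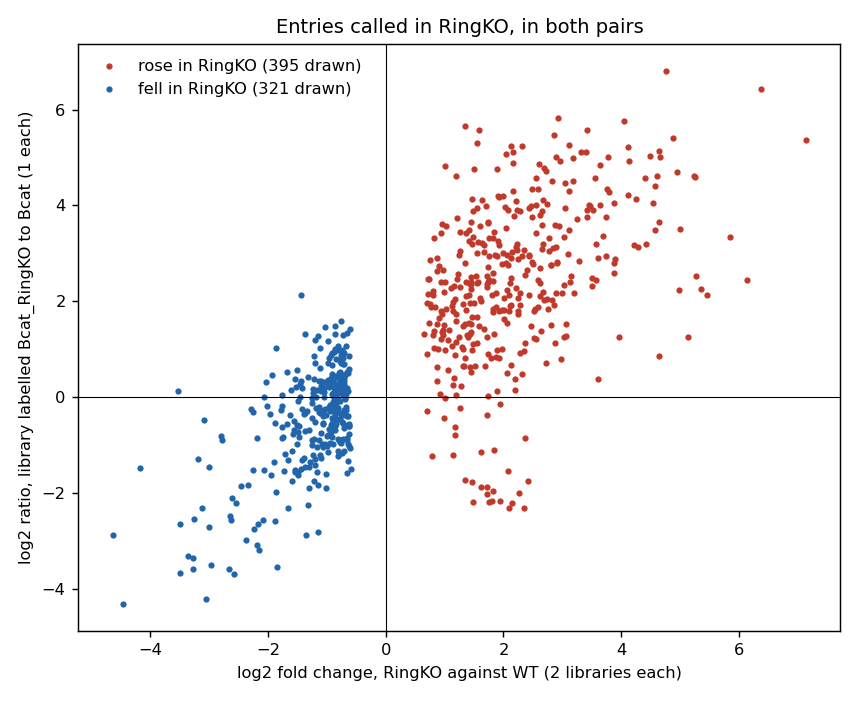
Each point is an entry that rose (red) or fell (blue) in RingKO, placed by its log2 fold change there (x axis, 2 libraries each) and by its log2 ratio of the library labelled Bcat_RingKO to Bcat (y axis, 1 library each). Entries without reads in 1 library of the Bcat pair are not drawn (163 rises without Bcat reads). Rises lie mostly above 0, with a separate set below -1 that holds Lyz1 and other Paneth genes, and falls lie on both sides of 0.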

How the data were processed

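Messenger RNA libraries of sorted Lgr5-GFP+ cells (4 for WT and RingKO, 1 each for Bcat and Bcat_RingKO) were analysed from the deposited tables, which the submitters' processing notes tie to TopHat, DESeq and the build mm9. Not given in the sources used here are the read counter, the annotation, read filters and whether strand was used. The authors deposited normalized coverage (signal) per RefSeq entry, as group means for WT and RingKO and as 1 value per library for the Bcat pair. The authors also deposited a fold (ratio), its log2 value, p-values and adjusted p-values; the last, over all 18376 entries, made the calls.

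From the values, each signal is a count plus 1 divided by a size factor (1.56 and 1.42 in WT, 0.704 and 0.696 in RingKO). The 2 whole counts behind each mean were recovered, with 1 solution for 18357 WT and 18375 RingKO values; in simulated means 99.99% of WT and 100% of RingKO entries came back right. Library letters are arbitrary. edgeR 4.0.16 (quasi-likelihood, filterByExpr, Benjamini-Hochberg), DESeq2 1.42.0 and limma 3.58.1 (limma-trend on log2 of normalized reads plus 1) were run on recovered reads as alternatives. For RingKO against WT, each of these tools was checked on simulated counts. There edgeR found 33% of the genes changed 2-fold and 90% of those changed 4-fold, with 7 false calls in 11053 entries. DESeq2 found 27% and 79%, and limma-trend 31% and 89%. The simulation gave all genes of both genotypes the same spread beyond counting, whereas RingKO libraries differed more than WT libraries (SD 0.454 and 0.247). The authors' test, which made the calls, was not simulated. For genes without WT reads the fold is a bound, with the group set at 3 reads (1.01 normalized). For genes with 1 to 3 WT reads, and for the Bcat pair, ratios carry 95% Clopper-Pearson intervals, exact and conditional on the total; both cover counting error only.

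Members and lists were chosen with earlier results of these data known, so no p is adjusted over a list and no list was tested. Named genes are Ring1, Rnf2, Lgr5, Ascl2 and Olfm4, the 8 largest rises without WT reads, the 6 largest rises and falls in each WT range from 10 upward, and up to 3 called genes per list by smallest adjusted p, leaving out unnamed predicted genes. Genes outside this rule (Isx, Sox4, Bmp3, Ihh, Sema7a, H19, Wnt3, Col1a1, Reg1, Dmrt1 to Dmrt3, Rarg, Tbc1d16, Rgs2, Mki67, the marker genes Ptprc and Pecam1, A1bg and Sall1, and those so marked) were chosen after their values were seen. Names, gene order, transcript lengths and first transcript bases came from the reference annotation on GRCm38, matched by accession for 98.7% of entries. The count of CpG in transcript starts was added after seeing the data. Some genes that the rule names are not reported here.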

Additional observations from a re-analysis of the deposited data

Results flagged for a closer look

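Some named genes called in RingKO stood on the other side of 1 in the Bcat pair, with a counting interval that excluded 1. A single pair of libraries was available there, and the difference between the pairs was not tested. Ring1 was lowered less in that pair than in RingKO, so the label Bcat_RingKO remains in doubt. Genes that rose in both RingKO libraries over both WT libraries had these ratios of the library labelled Bcat_RingKO to Bcat: Ang4 0.297, Mptx2 0.201, AY761184 0.217, Defa24 0.245, Itln1 0.272, Lyz1 0.219, Spink4 0.294, Mmp7 0.431, Clps 0.256, Oasl2 0.58 and Gm15284 0.222. Most are Paneth cell genes or defensins, whose copies can share reads. Genes that fell in RingKO had these ratios of the library labelled Bcat_RingKO to Bcat: Sqle 1.62, Mcm10 1.83, Pole 2.01 and Vim 2.03. Sqle makes cholesterol, Mcm10 and Pole replicate DNA, and Vim encodes vimentin.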

How the results depend on the processing

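Main calls were 558 rises and 323 falls. With edgeR's quasi-likelihood test there were 894 and 759 with the authors' size factors and 1038 rises with TMM; limma-trend gave 573 falls. A minimum mean of 50 left 302 rises. Leaving out 1 library at a time (edgeR, authors' size factors) gave 594 to 1474 rises and 190 to 3194 falls, the most without RingKO library A, the fewest falls without WT library B; without RingKO library B there were 1092 and 1494. A lone library is then assumed to vary like the other genotype, and WT varied less. In all 4 such fits 419 of the rises and 159 of the falls were called. With ranges set by the mean of both groups, 395 rises and 63 falls lay at 10 to 100 and 148 rises at 100 to 1000. In the Bcat pair TMM scaling gave 524 of 558 rises above 1 and 241 of 323 falls below 1. Of 166 named genes none changed sign under any alternative, 62 moved in size with 5 normalized reads added to each level, 8 lost their call with TMM, 21 without WT library A and 25 without WT library B, while Olfm4 gained one without either RingKO library and Lgr5 without library A. No paired analysis was possible because the deposited group means do not tell which recovered library carries which replicate number. RingKO libraries held fewer reads than WT libraries, and falls from low levels leave few reads to count.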

Other observations

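Genes of the major histocompatibility complex outside the classical pair showed rises, chosen after their values were seen. H2-Q10 stood at 67.8 and 65.5 normalized reads in WT and at 513 and 491 in RingKO (log2 fold change 2.90 ± 0.17), and H2-Bl at 19.8 and 14.8 and at 195 and 299 (3.79 ± 0.28). These genes have close copies between which reads can be split. H2-T23 fell (-0.77 ± 0.18) and the peptide transporter gene Tap2 rose (0.79 ± 0.15), and these were the 2 calls among 19 antigen presentation genes; both were lost without either WT library by edgeR's adjusted p (0.14 and 0.068 for H2-T23, 0.088 and 0.14 for Tap2).

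Rises were spread over the genome, from 2.37% of entries on chromosome 16 to 7.39% on chromosome 1 among chromosomes with over 100 entries. Runx3, a factor of T cells and sensory neurons chosen after its values were seen, went from 3.83 and 2.11 to 118 and 109 (4.98 ± 0.36).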
